A study of Mus musculus with 4 samples.

Results

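Transcripts of sphingolipid genes were measured on 4 whole-genome arrays of embryonic fibroblasts (MEFs) from C57BL/6 mice. The set holds 38 of the 18193 genes named by the probe sets, taken by symbol: sphingomyelinases, enzymes that make and break ceramide, the sphingosine-1-phosphate (S1P) enzymes with an exporter and receptors, and enzymes of glycosphingolipid metabolism. Each condition had 1 array. FAN -/- cells were given tumour necrosis factor (TNF) at 50 ng/ml for 16 h after 8 h in serum-free medium, or were left untreated in serum-free medium for 24 h. FAN +/+ cells, the wild type, were handled in the same TNF and untreated arms. All 4 cultures were therefore starved of serum, and the labels do not say how many embryos or cell preparations they came from.

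Ceramide is the hub of sphingolipid metabolism. It is built from serine and palmitoyl-CoA in the endoplasmic reticulum, or released from sphingomyelin by sphingomyelinases, and is then turned into sphingomyelin, ceramide phosphate, glucosylceramide or, after ceramidases and sphingosine kinases have acted, into S1P, a lipid that signals through its own receptors. FAN, the product of Nsmaf, is an adaptor that binds the TNF receptor and was named for its link to neutral sphingomyelinase activation. The arrays measure transcripts only, so enzyme activity and lipid levels are outside these data.

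Nsmaf itself gave signals of 179 with TNF and 240 untreated in FAN -/- cells, against 376 with TNF and 496 untreated in FAN +/+ cells. It fell by 1.06 ± 0.11 on the log2 scale (SE, limma adjusted p = 0.019), the direction the sample titles give. The genotype entry of 2 of the 4 samples contradicts their titles, and the titles were followed. The sources used here do not give the deleted stretch of Nsmaf, so whether its probe set lies in that stretch is unknown. In bulk RNA, fewer cells of a type and less RNA per cell cannot be told apart. The TNF targets Tnfaip3, Nfkbia, Ccl2, Icam1 and Vcam1 were higher with TNF in both genotypes and passed the limma test. Of 10 fibroblast markers all 10 lay above the floor, the median of all values, on every array, while markers of other cells were above it on at least 1 array for 5 of 11 leukocyte, 5 of 8 epithelial, 3 of 6 muscle, 4 of 5 neural and 2 of 8 endothelial genes. Between genotypes 6 of the 10 fibroblast markers were negative in the fit and 4 positive, Thy1, Pdgfrb, Fn1 and Vim, of which none passed. Those that passed were the matrix genes Lum (-4.97 log2, limma adjusted p = 0.016) and Dcn (-1.64, adjusted p = 0.035) and the growth factor receptor Pdgfra (-1.62, adjusted p = 0.011), which fell in FAN -/- cells. The muscle marker Des (0.76, adjusted p = 0.034) and the neural marker Tubb3 (1.24, adjusted p = 0.048) rose. All 3 fitted muscle markers were positive. Of 3 fitted neural markers 2 were positive and 1 negative, Map2 (-1.29, limma adjusted p = 0.22). The neural marker Sox2 was above the floor only on the untreated FAN +/+ array and was not fitted. Of 5 fitted leukocyte markers 4 were positive and 1 negative, and 0 passed.

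Of the 38 sphingolipid genes, 34 lay above the floor, a signal of 77.0, and all 34 did so on all 4 arrays. The other 4 stayed under it everywhere and are not compared. They are Smpd3, the neutral sphingomyelinase of Golgi and plasma membrane, with signals of 34.7 to 44.9, Smpd5 with 41.6 to 58.4, the alkaline ceramidase Acer2 with 26.7 to 48.4, and the S1P phosphatase Sgpp2 with 22.4 to 25.2. A signal is the deposited log2 value returned to the linear scale, and signals of different genes are not comparable with each other. With 1 array a condition, "higher" and "lower" describe 2 arrays and carry no p-value. The p-values of the fit speak of these 4 arrays, since nothing says the cultures of a genotype were separate preparations. With 2 arrays on each side, values that do not overlap are a description and no test. The words "rose" and "fell" mark genes with an adjusted p under 0.05 in an additive limma fit of genotype and TNF, which has 2 arrays on each side of either factor and takes any difference between the TNF responses as error.

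With TNF, Ugcg, Smpdl3b and St3gal5 were the furthest apart in FAN +/+ cells, and Ugcg, S1pr3 and Gla in FAN -/- cells. In FAN -/- cells 0 of the 34 genes were at least 2-fold apart with TNF, where 2.42% of all genes were. In FAN +/+ cells 2 genes were, Ugcg and Smpdl3b, both higher, where 4.12% of all genes were at least 2-fold apart. At 1.5-fold the counts were 6 in FAN -/- cells (6.29% of all genes), Ugcg, S1pr3, Gla and Sphk1 higher and St3gal5 and Spns2 lower, and 3 in FAN +/+ cells (11.2% of all genes), Ugcg, Smpdl3b and, lower, St3gal5. The median log2 difference of the 34 genes was -0.015 in FAN -/- and 0.013 in FAN +/+ cells, beside 0.0063 and -0.035 over all genes. In the additive fit 0 of the 34 genes passed for TNF (limma), against 2.72% of all genes. At an unadjusted p under 0.05 there were 10 of 34 (29.4%), against 18.8% of all genes. The lowest adjusted p was 0.062, for St3gal5. The TNF and genotype comparisons share arrays, so they are not independent of each other.

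**Figure D1:**
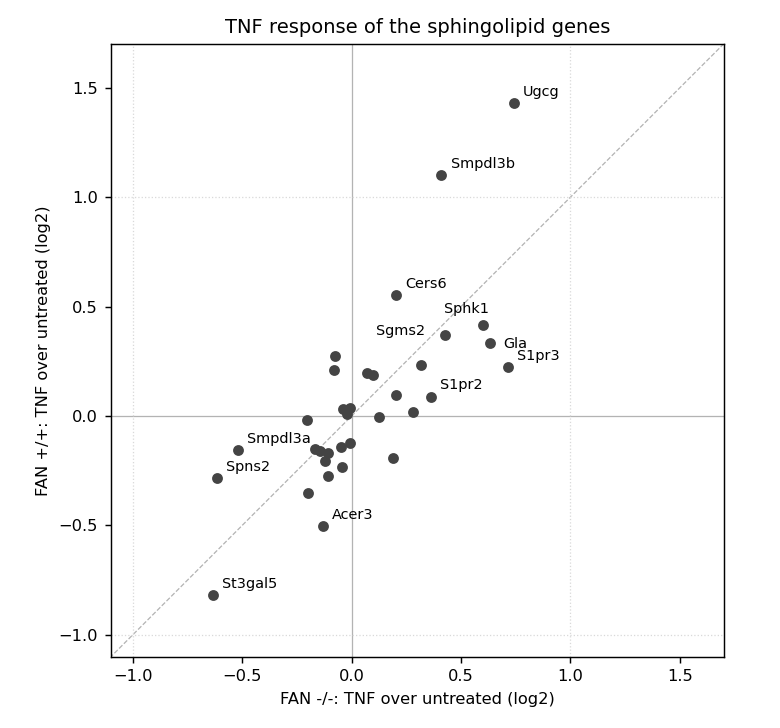
TNF response of the 34 sphingolipid genes above the floor, as log2 of TNF over untreated, in FAN -/- cells (horizontal axis) and FAN +/+ cells (vertical axis). Each point is 1 gene from 1 array against 1, dotted lines mark a 2-fold difference and the dashed line equal responses. Ugcg (0.74 and 1.43) and Smpdl3b (0.41 and 1.10) lie above the dashed line, and St3gal5 is the lowest in both genotypes (-0.63 and -0.82).

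Between genotypes the set was more often lower than higher in FAN -/- cells, and Spns2 was the furthest apart in the other direction. With TNF 2 of 34 genes were at least 2-fold apart, Spns2 higher and Ugcg lower, where 4.19% of all genes were. Untreated, Spns2 was the single gene of the 34 that was, where 4.34% of all genes were. At 1.5-fold S1pr1 and Sgms2 joined them with TNF, which made 4 genes (10.5% of all genes), and untreated there were 6 (11.8% of all genes), Spns2 higher and Ugcg, Sgms2, Cers4, S1pr3 and Acer3 lower. In the additive fit 2 of 34 genes passed for genotype, Spns2, which rose, and Sgms2, which fell, against 6.61% of all genes. At an unadjusted p under 0.05 there were 13 of 34 (38.2%), against 24.5% of all genes. The fitted genotype difference was negative for 27 genes and positive for 7, with a median of -0.13, beside -0.0078 over all genes. Of all 11817 fitted genes 6095 were negative and 5721 positive. These signs are those of the main probe sets. Of the 21 members with several probe sets above the floor, all probe sets had the same sign for 16 with TNF and 13 untreated. By array pair, the medians were -0.10 with TNF and -0.17 untreated, beside 0.013 and -0.027 over all genes. The marker genes that fell (Lum, Dcn, Pdgfra) or rose (Des, Tubb3) differ along the same contrast, and their part in these differences was not tested.

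**Figure D2:**
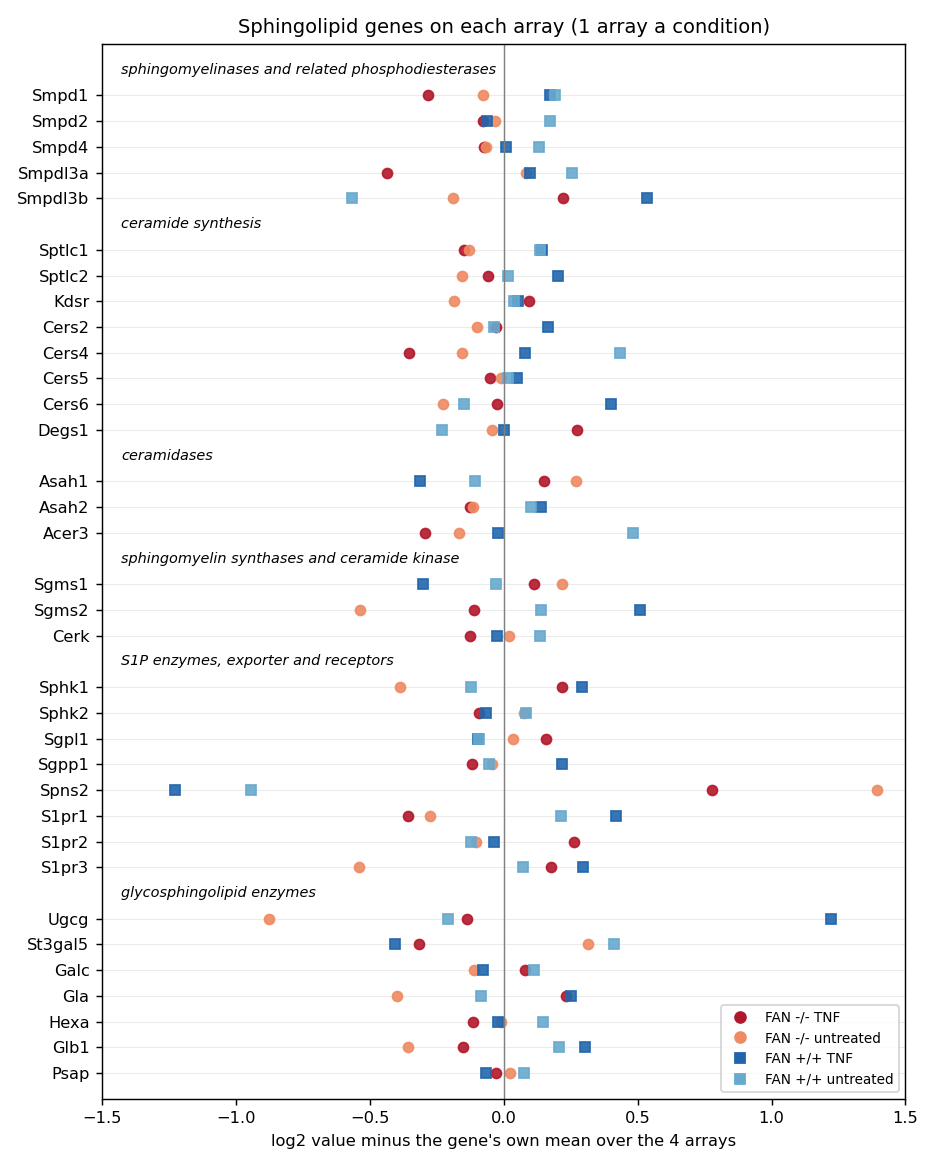
Value of each of the 34 genes on each of the 4 arrays, as log2 value minus that gene's own mean over the arrays, grouped by role. Circles are FAN -/- and squares FAN +/+ arrays, with darker colours for TNF. The FAN -/- arrays of Spns2 stand to the right and those of Sgms2, S1pr1 and Glb1 to the left of both FAN +/+ arrays.

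Glycosphingolipid synthesis starts with Ugcg, the glucosylceramide synthase, which puts glucose on ceramide. Its signal was 1089 with TNF and 651 untreated in FAN -/- cells, and 2787 with TNF and 1036 untreated in FAN +/+ cells. The TNF-treated wild-type array stands far above the other 3, and the TNF-treated FAN -/- value is level with the untreated wild-type one. Ugcg was thus 1.67-fold higher with TNF in FAN -/- and 2.69-fold higher in FAN +/+ cells. The fitted TNF difference of 1.08 ± 0.19 log2 (SE) missed the threshold (limma adjusted p = 0.072), as did the genotype difference of -1.01 ± 0.19 log2 (adjusted p = 0.055). Under 9 other settings the TNF difference passed in 2 and the genotype difference in 4. In FAN -/- cells it was 2.56-fold lower with TNF and 1.59-fold lower untreated. The 2 further Ugcg probe sets above the floor gave TNF responses of 0.77 and 0.76 log2 in FAN -/- cells and 1.39 and 1.54 log2 in FAN +/+ cells, so all 3 had the larger response in FAN +/+ cells. The difference of the responses was -0.69 log2 for the main probe set, and no degree of freedom is left to test it.

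The next steps of this route were read from genes outside the set. B4galt5, which adds galactose to give lactosylceramide, had signals of 656 with TNF and 455 untreated in FAN -/- cells, against 1438 with TNF and 768 untreated in FAN +/+ cells. It fell in FAN -/- cells by 0.94 ± 0.13 on the log2 scale (SE, limma adjusted p = 0.032), a call that 2 of 9 other settings lost. Like Ugcg, B4galt5 was highest on the TNF-treated wild-type array. B4galt6, the other lactosylceramide synthase, did not show this pattern. Its signals were 688 with TNF and 735 untreated in FAN -/- cells, and 680 with TNF and 729 untreated in FAN +/+ cells. The fitted genotype difference of B4galt6 was 0.015 ± 0.10 log2 (SE, limma adjusted p = 0.95).

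Lactosylceramide is the branch point of the ganglio and globo series. St3gal5 makes the ganglioside GM3 from it. St3gal5 had signals of 426 with TNF and 660 untreated in FAN -/- cells, against 400 with TNF and 706 untreated in FAN +/+ cells. Both TNF arrays were below both untreated arrays, and the genotypes lay close together within each treatment. It was 1.55-fold lower with TNF in FAN -/- and 1.76-fold lower in FAN +/+ cells, with a fitted difference of -0.73 ± 0.12 log2 (SE, limma adjusted p = 0.062), which passed under 5 of 9 other settings. Its second probe set gave -0.99 log2 in FAN -/- and -0.81 log2 in FAN +/+ cells. A4galt makes Gb3, the first globo-series lipid. A4galt had signals of 185 with TNF and 168 untreated in FAN -/- cells, against 825 with TNF and 358 untreated in FAN +/+ cells. Its TNF response was 1.10-fold in FAN -/- and 2.31-fold in FAN +/+ cells, both higher. It fell in FAN -/- cells by 1.62 ± 0.28 on the log2 scale (SE, limma adjusted p = 0.046), which 5 of 9 other settings lost.

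**Figure D3:**
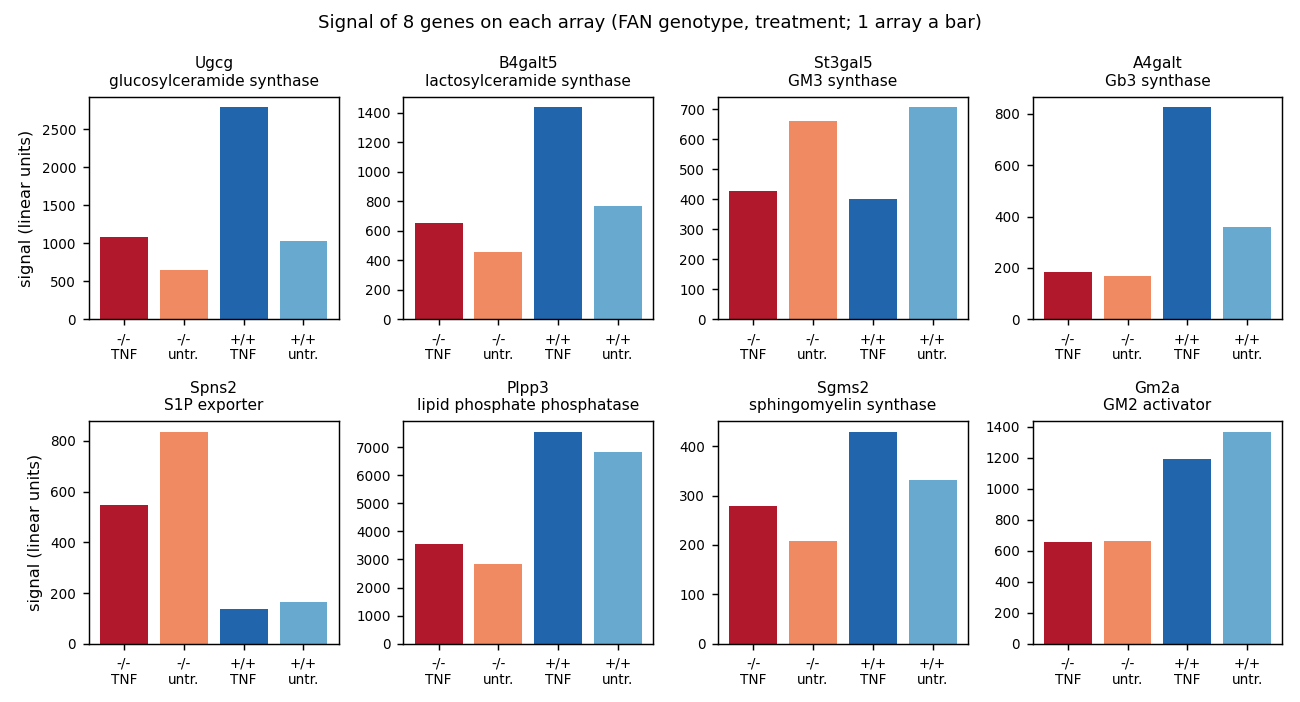
Linear signal of 8 sphingolipid genes on the 4 arrays, 1 bar an array, with FAN -/- left of FAN +/+ and TNF left of untreated. Ugcg, B4galt5 and A4galt are tallest on the TNF-treated FAN +/+ array (2787, 1438 and 825), St3gal5 is lower on both TNF arrays, and Spns2 is tallest on the FAN -/- arrays.

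Glycosphingolipid breakdown takes place in lysosomes. Psap encodes the precursor of the saposins, small activators of the lipid hydrolases, and its signal was 5674 with TNF and 5876 untreated in FAN -/- cells, and 5521 with TNF and 6093 untreated in FAN +/+ cells. Glb1, the beta-galactosidase, had 1012 with TNF and 879 untreated in FAN -/- cells, against 1388 with TNF and 1299 untreated in FAN +/+ cells. Its genotypes did not overlap, and the fitted difference was -0.51 ± 0.10 log2 (SE, limma adjusted p = 0.0596). Gla, the alpha-galactosidase A that degrades Gb3, was 1.55-fold higher with TNF in FAN -/- and 1.26-fold higher in FAN +/+ cells by its main probe set, while its second probe set gave -0.03 and -0.05 log2. By their main probe sets Hexa, a hexosaminidase subunit, and Galc, the galactosylceramidase, stayed within 1.17-fold in all 4 comparisons. Outside the set, Gm2a, the activator protein that presents GM2 to hexosaminidase, fell in FAN -/- cells by 0.95 ± 0.11 on the log2 scale (SE, limma adjusted p = 0.021). Its signals were 656 with TNF and 666 untreated in FAN -/- cells, against 1193 with TNF and 1370 untreated in FAN +/+ cells, and the log2 differences of its 3 probe sets between genotypes ran from -1.08 to -0.83. Neu3, a membrane sialidase for gangliosides, had 111 with TNF and 120 untreated in FAN -/- cells, against 73.8 with TNF, under the floor, and 84.4 untreated in FAN +/+ cells. It rose by 0.51 ± 0.09 log2 (SE, limma adjusted p = 0.0498), a call that 6 of 8 other settings lost.

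Sphingomyelinases are the enzymes FAN is named for, and the transcripts of Smpd1, Smpd2 and Smpd4 lay within 1.37-fold in all 4 array pairs by their main probe sets. Smpd1, the acid sphingomyelinase, had signals of 1828 with TNF and 2105 untreated in FAN -/- cells, and 2504 with TNF and 2537 untreated in FAN +/+ cells. Its genotype difference was -0.36 ± 0.09 log2 (SE, limma adjusted p = 0.11), with both FAN -/- values below both FAN +/+ values. In its second probe set the genotypes overlapped, with differences of -0.08 log2 with TNF and -0.12 log2 untreated. Its TNF responses there were 0.15 log2 in FAN -/- and 0.11 log2 in FAN +/+ cells, against -0.20 and -0.02 log2 by the main probe set. Smpd2, the neutral sphingomyelinase first cloned as such, had 794 with TNF and 820 untreated in FAN -/- cells, and 803 with TNF and 945 untreated in FAN +/+ cells. Smpd4, another neutral sphingomyelinase, had 302 with TNF and 303 untreated in FAN -/- cells, and 320 with TNF and 348 untreated in FAN +/+ cells. By their main probe sets neither Smpd2 nor Smpd4 passed the fit for either factor. The second Smpd4 probe set above the floor pointed the other way between genotypes, 0.28 log2 with TNF and 0.36 log2 untreated against -0.08 and -0.20 log2, so the direction for Smpd4 depends on the probe set. These values bear on transcript levels and say nothing of enzyme activation by the receptor.

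The sphingomyelinase-like phosphodiesterases, relatives of the acid enzyme, differed more. Smpdl3b, a membrane-anchored protein, had signals of 212 with TNF and 160 untreated in FAN -/- cells, and 263 with TNF and 123 untreated in FAN +/+ cells. Both TNF values were above both untreated ones. It was 1.33-fold higher with TNF in FAN -/- and 2.14-fold higher in FAN +/+ cells, and the fitted TNF difference was 0.76 ± 0.19 log2 (SE, limma adjusted p = 0.15). The secreted Smpdl3a had 800 with TNF and 1148 untreated in FAN -/- cells, and 1160 with TNF and 1292 untreated in FAN +/+ cells, with the TNF-treated FAN -/- array the lowest.

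None of the 8 ceramide synthesis genes was 2-fold apart in any array pair. Serine palmitoyltransferase, the first enzyme of the route, is formed by Sptlc1 and Sptlc2. Sptlc1 had 1059 with TNF and 1074 untreated in FAN -/- cells, and 1297 with TNF and 1289 untreated in FAN +/+ cells. By the main probe sets the TNF responses of both subunits stayed within 1.14-fold, while a second Sptlc1 probe set gave -0.43 log2 in FAN -/- cells and a second Sptlc2 probe set 0.33 log2 in FAN +/+ cells. Sptssa, a small subunit that activates this enzyme and is no member of the set, had 904 with TNF and 933 untreated in FAN -/- cells, against 1520 with TNF and 1625 untreated in FAN +/+ cells. It fell in FAN -/- cells by 0.77 ± 0.09 on the log2 scale (SE, limma adjusted p = 0.024). Degs1, which desaturates dihydroceramide to ceramide, had 3909 with TNF and 3142 untreated in FAN -/- cells, and 3240 with TNF and 2755 untreated in FAN +/+ cells. It was thus 1.24-fold higher with TNF in FAN -/- and 1.18-fold higher in FAN +/+ cells (0.27 ± 0.08 log2, SE, limma adjusted p = 0.19).

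The ceramide synthases attach fatty acids of different length to the sphingoid base. Cers4 was lower on both FAN -/- arrays, with signals of 442 with TNF and 507 untreated, against 598 with TNF and 764 untreated in FAN +/+ cells (-0.51 ± 0.11 log2, SE, limma adjusted p = 0.077). Its 3 probe sets were all negative in both genotype comparisons. Cers6, which prefers palmitoyl-CoA, had 623 with TNF and 542 untreated in FAN -/- cells, and 837 with TNF and 571 untreated in FAN +/+ cells. Its highest value was again the TNF-treated wild type, with a fitted TNF difference of 0.38 ± 0.13 log2 (SE, limma adjusted p = 0.24). By their main probe sets Cers2, Cers5 and the reductase Kdsr stayed within 1.22-fold in all 4 comparisons.

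Ceramidases split ceramide into sphingosine and a fatty acid. Asah1, the lysosomal acid ceramidase, was higher on both FAN -/- arrays. Its signals were 5887 with TNF and 6404 untreated in FAN -/- cells, against 4276 with TNF and 4933 untreated in FAN +/+ cells. The genotypes did not overlap, and the fitted difference of 0.42 ± 0.08 log2 (SE) missed the threshold (limma adjusted p = 0.053) and passed under 5 of 9 other settings. Asah2, the neutral ceramidase, had 278 with TNF and 279 untreated in FAN -/- cells, and 334 with TNF and 325 untreated in FAN +/+ cells. Acer3, an alkaline ceramidase, had 180 with TNF and 197 untreated in FAN -/- cells, and 218 with TNF and 309 untreated in FAN +/+ cells.

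The sphingomyelin synthases, which move the head group of phosphatidylcholine onto ceramide, lay on opposite sides between genotypes. Sgms2, the plasma membrane enzyme, had signals of 279 with TNF and 208 untreated in FAN -/- cells, against 429 with TNF and 332 untreated in FAN +/+ cells. Both FAN -/- values were below both FAN +/+ values. It fell by 0.65 ± 0.11 on the log2 scale (SE, limma adjusted p = 0.0497), a call at the edge of the threshold that 3 of 9 other settings lost. Its second probe set differed by less, -0.38 log2 with TNF and -0.37 log2 untreated. TNF went with a higher Sgms2 in both genotypes, 1.34-fold in FAN -/- and 1.29-fold in FAN +/+ cells (limma adjusted p = 0.18). Sgms1, the Golgi enzyme, had 597 with TNF and 643 untreated in FAN -/- cells, and 448 with TNF and 541 untreated in FAN +/+ cells (0.33 ± 0.11 log2, SE, limma adjusted p = 0.18). Its 4 probe sets were all positive between genotypes, but ran from 0.05 to 0.41 log2 with TNF and from 0.01 to 0.27 log2 untreated. The main probe set was the highest with TNF. The ceramide kinase Cerk stayed within 1.12-fold in all 4 comparisons.

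**Figure D4:**
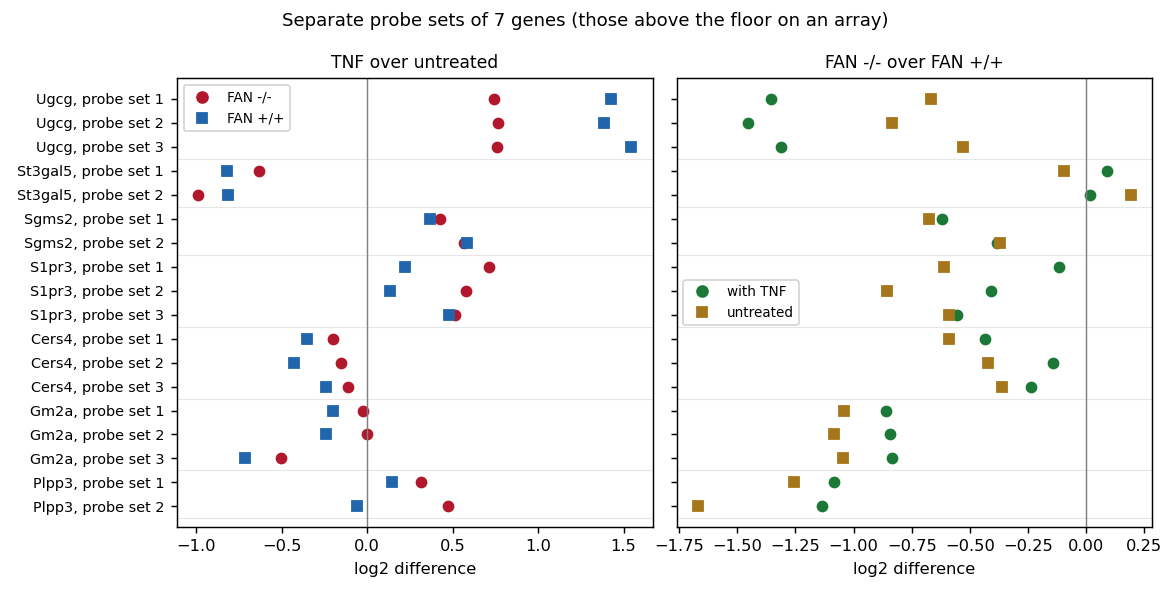
Log2 differences of the separate probe sets of 7 genes, for probe sets above the floor on at least 1 array. The left side shows TNF over untreated in FAN -/- (circles) and FAN +/+ cells (squares). The right side shows FAN -/- over FAN +/+ with TNF (circles) and untreated (squares). All 3 Ugcg probe sets respond more in FAN +/+ cells (1.39 to 1.54), both St3gal5 probe sets are lower with TNF, and Gm2a and Plpp3 are lower in FAN -/- cells by every probe set.

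Of the S1P genes, Spns2 showed the largest genotype difference among the 34. Spns2 is the transporter that exports S1P from cells. It had signals of 546 with TNF and 837 untreated in FAN -/- cells, against 136 with TNF and 166 untreated in FAN +/+ cells. Both FAN -/- values lie far above both FAN +/+ values. Spns2 was 4.01-fold higher with TNF and 5.05-fold higher untreated in FAN -/- cells, and rose by 2.17 ± 0.14 log2 (SE, limma adjusted p = 0.0085), a call lost in 1 of 9 other settings (genotype alone, adjusted p = 0.11). In both genotypes it was lower with TNF, 1.53-fold in FAN -/- and 1.22-fold in FAN +/+ cells (fitted -0.45 ± 0.14 log2, SE, adjusted p = 0.20). It has a single probe set, so there is no second measurement on the array. In mice Spns2 is best known from endothelium. The endothelial markers Pecam1, Cdh5, Tie1, Vwf, Emcn and Cldn5 stayed under the floor on all arrays, and Kdr and Tek lay above it. Kdr had signals of 161 with TNF and 160 untreated in FAN -/- cells, and 158 with TNF and 142 untreated in FAN +/+ cells. Tek had 129 with TNF and 158 untreated in FAN -/- cells, and 127 with TNF and 204 untreated in FAN +/+ cells. The part of other cell types in the Spns2 difference was not tested.

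The start of Spns2 is shown because this gene had the largest genotype difference of the set. RefSeq gives 1 promoter window of 300 bases around its start, at chr11:72474978-72475277 on the minus strand of GRCm38.p6. It is printed from 5′ to 3′ with CpG dinucleotides in capitals.
Spns2: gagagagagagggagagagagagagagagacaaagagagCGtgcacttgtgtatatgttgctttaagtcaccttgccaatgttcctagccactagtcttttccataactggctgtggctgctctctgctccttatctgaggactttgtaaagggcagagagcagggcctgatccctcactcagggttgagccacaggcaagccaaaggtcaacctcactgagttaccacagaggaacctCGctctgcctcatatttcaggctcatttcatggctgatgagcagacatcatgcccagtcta
The window holds 2 CpG dinucleotides, where the median of the 32851 promoter windows at hand is 7 and 23.3% hold as few or fewer. The GC box GGGCGG, found on either strand in 35.7% of the windows, the TATA box TATAAA (13.6%) and the kappaB consensus, the site of NF-kB (4.51%), were not found in it on either strand, which says only that these letters are not in this window.

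The S1P receptors differed in another way. S1pr3 had signals of 2220 with TNF and 1352 untreated in FAN -/- cells, against 2411 with TNF and 2067 untreated in FAN +/+ cells. By this main probe set the untreated FAN -/- array is the low one, and the other 3 lie close together. It was 1.64-fold higher with TNF in FAN -/- and 1.17-fold higher in FAN +/+ cells (fitted 0.47 ± 0.14 log2, SE, limma adjusted p = 0.20). Its other probe sets gave TNF responses of 0.58 and 0.52 log2 in FAN -/- and 0.13 and 0.48 log2 in FAN +/+ cells. The third thus shows almost no difference between the responses. Between genotypes these probe sets were lower in FAN -/- cells under both treatments. Their log2 differences were -0.41 and -0.56 with TNF and -0.85 and -0.59 untreated. The untreated FAN -/- array was the lowest in these too, and the TNF-treated FAN -/- array also lay below both FAN +/+ arrays. S1pr1, the receptor that controls lymphocyte exit and vessel stability, had 174 with TNF and 184 untreated in FAN -/- cells, against 298 with TNF and 258 untreated in FAN +/+ cells (-0.63 ± 0.13 log2, SE, limma adjusted p = 0.068). S1pr2 had 830 with TNF and 645 untreated in FAN -/- cells, and 676 with TNF and 636 untreated in FAN +/+ cells. Its second probe set gave TNF responses of 0.81 log2 in FAN -/- and 0.29 log2 in FAN +/+ cells.

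Of the enzymes of the set that make and break S1P, none above the floor passed the fit for either factor. Sphk1, the sphingosine kinase linked to TNF signalling, had 247 with TNF and 162 untreated in FAN -/- cells, and 260 with TNF and 195 untreated in FAN +/+ cells. Both TNF values lie above both untreated ones, with a fitted TNF difference of 0.51 ± 0.12 log2 (SE, limma adjusted p = 0.13). Its second probe set gave 0.14 log2 in FAN -/- and 0.46 log2 in FAN +/+ cells. By their main probe sets Sphk2, the other kinase, and the lyase Sgpl1 were at most 1.19-fold apart in the 4 comparisons. The phosphatase Sgpp1 was lower in FAN -/- cells with TNF by all 3 of its probe sets, with log2 differences from -0.61 to -0.29, while untreated the 3 differed in sign (-0.10 to 0.19). Outside the set, Plpp3, a phosphatase at the cell surface that degrades S1P and lysophosphatidic acid, had 3556 with TNF and 2855 untreated in FAN -/- cells, against 7550 with TNF and 6825 untreated in FAN +/+ cells. It fell in FAN -/- cells by 1.17 ± 0.08 on the log2 scale (SE, limma adjusted p = 0.010).

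**Figure D5:**
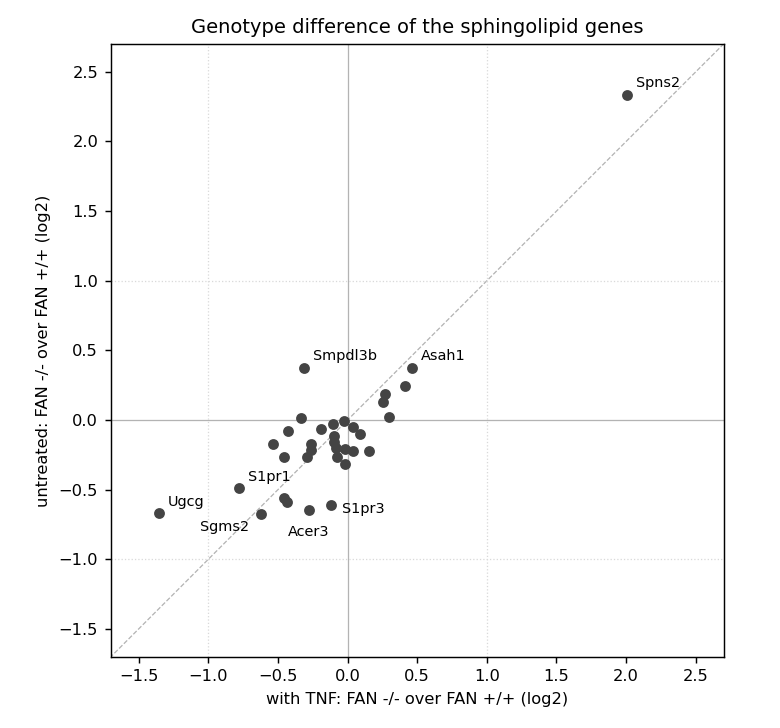
Genotype difference of the 34 genes, as log2 of FAN -/- over FAN +/+, with TNF (horizontal axis) and untreated (vertical axis). Each point is 1 gene and dotted lines mark a 2-fold difference. Spns2 stands apart at 2.00 and 2.34, and Ugcg lies furthest to the left at -1.36.

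Counted together, 42 further genes of sphingolipid metabolism were listed, of which 36 were in the table and 26 above the floor. For TNF 0 of the 26 passed the additive fit (limma), against 2.72% of all genes, and 6 of 26 (23.1%) had an unadjusted p under 0.05, against 18.8% of all genes. For genotype 5 fell, Plpp3, Gm2a, Sptssa, B4galt5 and A4galt, where 3.67% of all genes fell, and 1 rose, Neu3, where 2.94% of all genes rose. The list was chosen with earlier results of these data known, so these counts are no test of the pathway. A4galt was the 1 gene of the 26 whose TNF response differed at least 2-fold between genotypes (-1.07 log2, FAN -/- minus FAN +/+), and 0 of the 34 members did, where 1.61% of all genes did. At 1.5-fold 2 members did, Ugcg and Smpdl3b (6.46% of all genes). These differences have no test. For the members with several probe sets above the floor, 21 in number, all probe sets had the same sign for 17 in the TNF response of FAN -/- cells, 16 in that of FAN +/+ cells, 16 in the genotype difference with TNF and 13 untreated.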

How the data were processed

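RNA of 4 cultures was measured on Affymetrix mouse arrays, 1 for each condition. MAS5 is named as a tool behind the deposited log2 values, per the submitters' processing notes, with no role given. The scale was judged from their range (2.79 to 14.40), with normalization between arrays not given in the sources used here. The arrays hold 45101 probe sets, of which 64 are controls, 34945 name 1 gene, 932 several, and 9160 are unnamed here. Symbols were checked by Entrez identifier against a RefSeq table (GRCm38.p6, names only; 34741 matched). For each of 18193 genes, the probe set with the highest mean log2 value over the arrays was used.

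Values under the median of all values (77.0) were raised to it. Genes above it on at least 1 array (12224) entered the array pairs, and those above it on at least 2 (11817) an additive fit with limma 3.58.1 in R 4.3.3 (lmFit, eBayes with trend, Benjamini-Hochberg over all genes, threshold 0.05, 1 residual degree of freedom). The code was run on simulated data with normal noise and no difference between the TNF responses. That run cannot show whether these assumptions hold for the 4 arrays. Trimmed array means differed by 2.94%, so no rescaling was applied.

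Members and gene lists were chosen with earlier results of these data known. The naming rule gave array values for members at least 2-fold apart in an array pair, past the fit, or of highest mean in their role group, and for pathway genes at least 2-fold apart or past the fit. Other members' array values, and those of the pathway gene B4galt6, were added after the values were seen. Groups follow titles and source names, since the genotype entry of 2 samples opposes its title. Some listed pathway genes are not analysed here. Other floors, no floor, centring, quantile normalization, means of probe sets, no filter, a 1.5-fold threshold, no trend and 1 factor alone were tried as alternatives.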

Additional observations from a re-analysis of the deposited data

Results flagged for a closer look

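Plpp2, a lipid phosphate phosphatase of the pathway list, had opposite TNF responses in the genotypes. It was 1.29-fold higher with TNF in FAN -/- cells and 1.26-fold lower with TNF in FAN +/+ cells, at least 1.2-fold each way. The responses differed by 0.70 on the log2 scale, and the difference was not tested, since each response rests on 1 array against 1.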

How the results depend on the processing

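No paired analysis was possible because each condition has 1 array, so no replicate numbers are shared; the additive fit does compare genotypes within each treatment. With a floor at the 70th percentile, 1 of 33 members was at least 2-fold apart with TNF in FAN +/+ cells. In the fit 2 of 31 passed for TNF, where 233 of all 8189 genes passed as higher and 225 as lower. For genotype 5 passed, where 330 and 415 of all genes did. With a floor at the 30th percentile 1 of 37 passed for genotype, where 303 and 390 of 14836 genes did. With no filter 1 of 38 passed for genotype, where 248 and 334 of 18193 genes did. With no floor 1 of 34 passed for TNF, where 253 and 212 of 11817 genes did, and 4 for genotype, where 446 and 567 did. After centring each array, 3 passed for TNF and 8 for genotype, and over all genes 404 were higher and 516 lower with TNF, against 186 and 135 as deposited. For genotype it gave 526 higher and 970 lower over all genes, against 347 and 434, and 2 higher and 6 lower members, against 1 and 1. After quantile normalization 1 passed for TNF, where 230 of 11794 genes passed as higher and 194 as lower. With the mean of all probe sets, 1 of 32 passed for TNF, where 196 and 169 of 10508 genes did. For genotype 5 passed there, where 354 and 431 of all genes did. With genotype alone in the model, without TNF as a term, 0 passed, and only 4 and 6 of all 11817 genes did. At 1.5-fold the counts were 6 for TNF in FAN -/- cells, 4 for genotype with TNF, 6 for genotype untreated and 2 for the difference of responses. The cause was not tested beyond what each setting changes by construction. The other 41 counts stayed within 1.5 times. Of single genes' results, 166 kept their side of the threshold, 26 lost it, 22 gained it and 0 reversed. The adjusted p of Sgms2 for genotype ran from 0.015 to 0.34 over its alternatives, and that of Spns2 from 7.9e-05 to 0.11. With 1 array a condition and 1 residual degree of freedom, the number of arrays limits the precision.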
